A study of Mus musculus with 12 samples.

Results

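The genes described here are 10 of the 24062 entries in the deposited tables: the matrix metalloproteinase genes Mmp12, Mmp13, Mmp14, Mmp8 and Mmp9, the inhibitor genes Timp1, Timp2 and Timp3, and the urokinase genes Plau and Plaur. They were chosen by symbol, with the knowledge that Mmp12 and Mmp13 are higher when Spi1 is raised. Their values in the overexpression experiment are therefore given as a description, with no test. RNA was sequenced from BV2 cells, an immortalised mouse microglial line, sorted by flow cytometry, with Spi1 transiently knocked down or overexpressed. Its product PU.1 belongs to the ETS transcription factors and is needed for macrophages and microglia to form. The 12 libraries form 4 groups of 3: Spi1 knockdown by a short hairpin RNA, its scrambled control, overexpression of a mouse Spi1 cDNA, and its empty control. All groups come from this single cell line, grown in serum-containing medium with no further treatment, so the results describe a line and not microglia of the brain. Whether the libraries within a group stem from independent cultures is not stated, and the p-values measure only the spread between libraries, which may be technical.

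Matrix metalloproteinases are zinc enzymes that are made as inactive precursors and cut proteins of the extracellular matrix and of the cell surface. Tissue inhibitors of metalloproteinases, the TIMP proteins, bind the active enzymes and block them. Urokinase, bound to its receptor on the cell surface, turns plasminogen into plasmin, which digests fibrin and activates several metalloproteinase precursors. In brain tissue, macrophages and microglia are known sources of these proteases during inflammation and injury.

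Levels are in FPKM, reads scaled to the length of the gene and to the total of the library, and rest on 22.3 to 33.1 megareads per library. Of the macrophage and microglia markers, 11 of 13 had a group mean of at least 1 FPKM in each group, among them Csf1r, Itgam, Tyrobp and Trem2, while Cx3cr1 and P2ry12 lay below. Kdr, Flt1 and Vwf of the endothelial list were detected, with the list summing to 121 to 127 FPKM in knockdown and 95.5 to 96.9 FPKM in the scrambled controls, although Cdh5, Pecam1 and Cldn5 were near 0; their part in the results was not tested. The summed macrophage and microglia markers were at 2192 to 2418 FPKM in knockdown, 2634 to 2761 FPKM in the scrambled controls, 2340 to 2616 FPKM in overexpression and 2398 to 2671 FPKM in the empty controls. Single markers differed more than the sum. Itgam averaged 86.5 FPKM in knockdown and 189 FPKM in the scrambled controls, and Csf1r 47.6 and 79.8 FPKM. The abundant Cd68 averaged 634 and 641 FPKM and Fcer1g 667 and 705 FPKM. Cx3cr1 went the other way, at 0.868 and 0.335 FPKM. The part of these markers in the results was not tested. Spi1 averaged 48.5 ± 5.32 FPKM in knockdown and 165 ± 5.41 FPKM in the scrambled controls, and 239 ± 42.3 FPKM in overexpression and 135 ± 20.8 FPKM in the empty controls (SD, n = 3 each). The Spi1 difference passed in knockdown (limma, BH adjusted p = 0.000697) and, in overexpression, passed with the replicate number as a block (0.0357) and not without it. The blocked call was lost without the libraries numbered 1 (adjusted p = 0.175) or 2 (0.0662). Libraries that share a number deviated together from their group means, so the ratio within each pair of same-numbered libraries is given, and a fit with the number as a block stands beside the fit without it. The groups are bulk RNA, in which a change in the number of expressing cells and a change of RNA per cell cannot be told apart.

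Of the 10 genes, 6 averaged 1 FPKM or more in the knockdown experiment and were tested there: Mmp12, Mmp13, Mmp9, Timp2, Plau and Plaur. In limma on log2(FPKM + 1), with Benjamini-Hochberg (BH) adjustment over 11214 genes and a threshold of 0.05, 1 of the 6 passed, Plaur, which fell. In that fit 26.3% of all genes tested passed, 17.4% higher and 8.86% lower. With the replicate block 4 of the 6 passed, against 45.3% of all genes, 30.6% higher and 14.7% lower: Mmp12, Mmp9 and Plaur were lower and Plau was higher. In limma-voom on reads recovered from the values, with the block, 5 passed, against 51.1% of all genes. Whether the 6 genes differ in these shares from all genes tested was not tested. When the libraries were rescaled by median-of-ratios, 2702 genes or 24.1% passed, 1248 of them higher, against 1952 of 2945 as deposited, and Plaur was again the member that passed. With rescaling and the block 4 passed, all of them lower. Of all 11210 genes tested in that fit 41.9% passed in either direction, 2256 genes higher and 2445 lower. Thus the balance of higher and lower calls depends on the scaling. The median log2 fold change of all genes was 0.07 on the deposited values. The same 6 genes passed the filter in the overexpression experiment, where 0 of 11217 genes (0.0%) passed in limma without the block, 0 in limma-voom without it, 122 had an unadjusted p below 0.05, and 13 passed with the block, which is 0.116%.

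**Figure D1:**
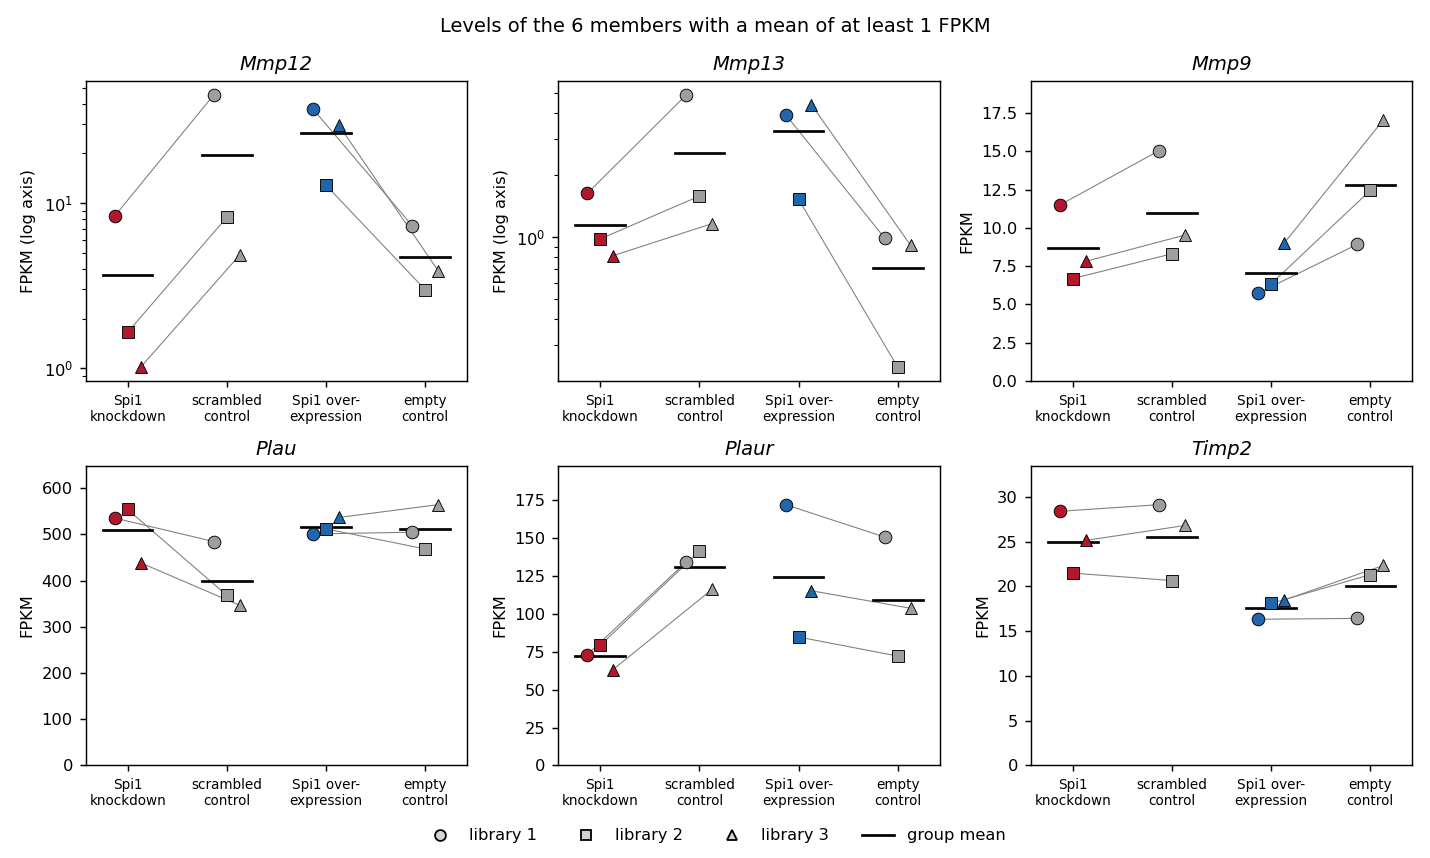
FPKM of the 6 tested metalloproteinase, inhibitor and urokinase genes, by group. Each point is a library, grey lines join same-numbered libraries and black bars are group means of 3 libraries; the axes of Mmp12 and Mmp13 are logarithmic. Mmp12 lay lower in each knockdown library than in its scrambled partner and higher in each overexpression library than in its empty partner, while scrambled control 1, at 45.3 FPKM, was the highest of all 12.

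Mmp12, the gene of macrophage metalloelastase, which cuts elastin, had the largest log2 fold change of the 6 tested genes in both experiments, downward in knockdown and upward in overexpression. It was at 8.37, 1.65 and 1.01 FPKM in knockdown libraries 1, 2 and 3, and at 45.3, 8.21 and 4.85 FPKM in scrambled controls 1, 2 and 3. The groups overlap, since knockdown library 1 stood above scrambled controls 2 and 3, and both libraries numbered 1 were high. Within pairs the knockdown level was 0.185, 0.201 and 0.209 of the scrambled level, so the pairs were much closer to each other in ratio than in level. These values rest on 121 to 802 reads in knockdown and 427 to 4214 reads in the scrambled controls. The log2 fold change of FPKM + 1 was -1.88 with a standard error of 0.836, and it did not pass without the block (limma, BH adjusted p = 0.136). Without scrambled control 1 the change was -0.99, and without knockdown library 1 it was -2.55. With the block the same change had a standard error of 0.150 and passed (limma, BH adjusted p = 0.00366), and it stayed past the threshold without the libraries numbered 1, 2 or 3 (adjusted p from 0.00912 to 0.0428). Of the 11214 genes tested, 2 had a lower log2 fold change than Mmp12. For comparison, Spi1 itself stood at 0.251 to 0.320 of its scrambled partner.

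With Spi1 raised, Mmp12 was at 37.0, 12.8 and 29.6 FPKM in overexpression libraries 1, 2 and 3, against 7.29, 2.99 and 3.90 FPKM in empty controls 1, 2 and 3. All 3 overexpression libraries lay above all 3 empty controls, as did 1.66% of all genes, with library 2 lowest in both groups. Within pairs the level was 5.08, 4.29 and 7.59 times that of the empty control, while Spi1 was 1.58 to 1.91 times as high. The log2 fold change of FPKM + 1 was 2.21 with a standard error of 0.433 without the block and 0.157 with it. Mmp12, like Mmp13, was chosen with this rise known, so these values are a description and not a test. By group mean the order of Mmp12 was overexpression, scrambled control, empty control and knockdown, at 26.5, 19.5, 4.73 and 3.68 FPKM. Each neighbouring pair in this order overlaps in range, and scrambled control 1 exceeded all overexpression libraries.

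Mmp13, the gene of collagenase 3, which cuts fibrillar collagen, followed Mmp12 at a lower level. It was at 1.63, 0.981 and 0.814 FPKM in knockdown, from 116, 70 and 72 reads, and at 4.90, 1.58 and 1.16 FPKM in the scrambled controls, from 338, 104 and 76 reads. Each knockdown library was below its partner, at 0.333, 0.620 and 0.699 of it, but the groups overlap. On the log2(FPKM + 1) scale the change was -0.60 with a standard error of 0.353 (limma, BH adjusted p = 0.242), and -0.16 without scrambled control 1. The standard error was 0.186 with the block (limma, BH adjusted p = 0.0524). The call depended on the model, since limma-voom on reads recovered from the FPKM values, with the block, gave a log2 fold change of -1.12 (BH adjusted p = 0.000537). With Spi1 raised, Mmp13 was at 3.93, 1.53 and 4.38 FPKM in overexpression, against 0.988, 0.235 and 0.914 FPKM in the empty controls. The overexpression libraries all lay above the empty controls, as did 1.66% of all genes. Within pairs they were 3.97, 6.51 and 4.80 times as high. On the log2(FPKM + 1) scale the difference was 1.28, and 2.10 with a pseudocount of 0.1, because the empty controls lie near the pseudocount of 1.

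**Figure D2:**
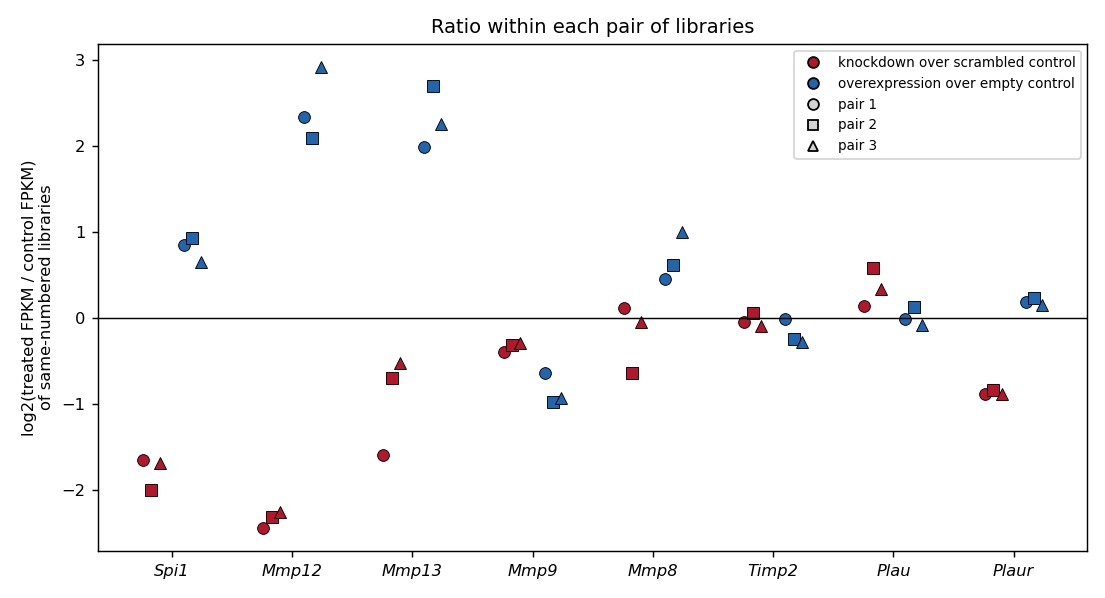
Log2 ratio of FPKM, with no pseudocount, of each knockdown library over its same-numbered scrambled control and of each overexpression library over its same-numbered empty control, for Spi1 and 7 of the 10 genes. Points are pairs of libraries; Mmp12 and Mmp13 lie below 0 in all knockdown pairs and above 0 in all overexpression pairs, and Mmp9 lies below 0 in all 6 pairs.

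Mmp12 and Mmp13 are neighbours in a row of 10 metalloproteinase genes on chromosome 9 of the mouse, which runs from base 7272514, the start of Mmp13, to base 7699585, the end of Mmp7, in mm10. Mmp12 lies on the plus strand at bases 7344381 to 7369499 in GENCODE M21, and its exons share 157 bases with those of Mmp1b on the minus strand. Mmp13 lies at bases 7272514 to 7283331 and Mmp8 at bases 7558456 to 7568485, both on the plus strand. The library kit does not mark strand, but Mmp1b had 7 reads over all 12 libraries and Mmp12 had 16051. Only Mmp12 and Mmp13 of the 10 reached a mean of 1 FPKM in a group. The next, Mmp8, had at most 0.583 FPKM in a library, and Mmp1a, Mmp20 and Mmp7 were listed at 0 throughout. Of the flanking genes, Dcun1d5 averaged 46.4, 42.8, 43.0 and 41.9 FPKM in knockdown, scrambled control, overexpression and empty control, and Birc3, an inhibitor of apoptosis gene, 14.1, 14.7, 12.2 and 13.1 FPKM. Tmem123, on the far side of the row, averaged 27.6 FPKM in knockdown and 21.4 FPKM in the scrambled controls (log2 fold change 0.35; limma, BH adjusted p = 0.00712), a rise where Mmp12 and Mmp13 were lower. Whether the row and its flanks differ in response was not tested.

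**Figure D3:**
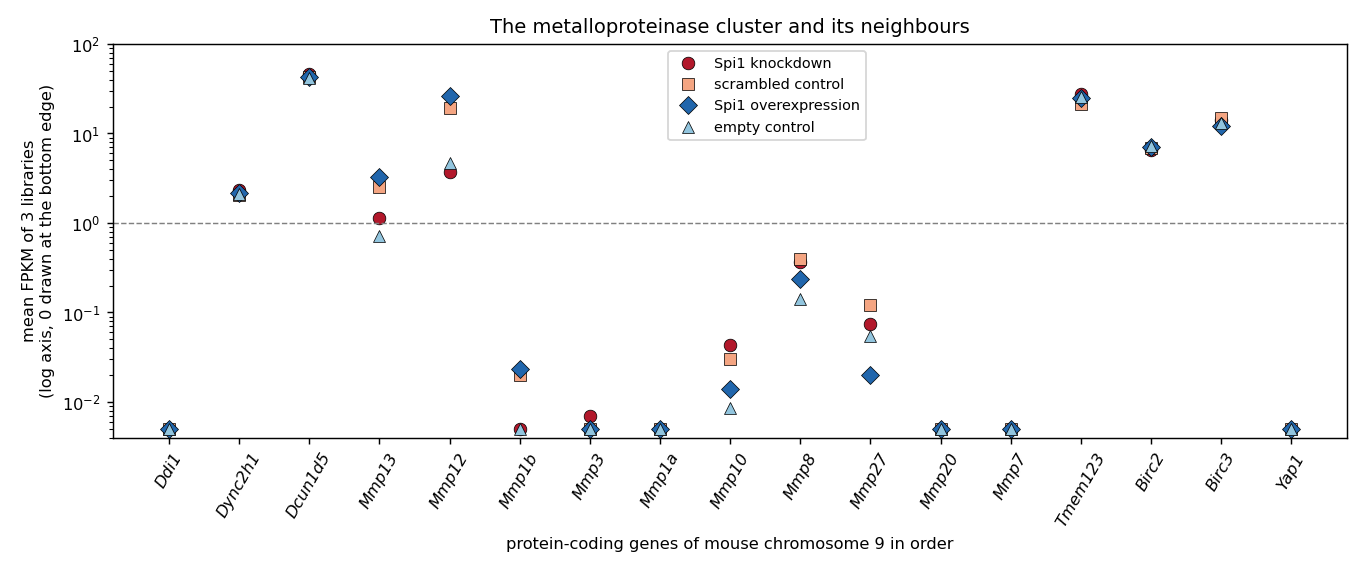
Mean FPKM of 3 libraries, on a logarithmic axis, for the protein-coding genes of the chromosome 9 metalloproteinase row and its flanks in RefSeq order, by group. The dashed line marks 1 FPKM and genes at 0 are drawn at the bottom edge. Mmp13 and Mmp12 are the metalloproteinase genes with group means above the line. The Mmp13 mean of the empty controls, 0.712 FPKM, lies below it. The group means of both genes spread apart while those of Dcun1d5, Birc2 and Birc3 lie close together. The flanking gene Tmem123 averaged 27.6 FPKM in knockdown and 21.4 FPKM in the scrambled controls.

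The promoters of Mmp12, Mmp13 and Plaur are shown because Mmp12 and Mmp13 are the expressed genes of the row, chosen for their levels with Spi1 raised, and Plaur passed the test in knockdown. Each is the 250 bases before a RefSeq start (GRCm38.p6, which is mm10, plus strand), and RefSeq gives Mmp12 more than 1 start. Capitals mark GAGGAA or its reverse complement, the core of a PU.1 box, and TGACTCA or its reverse complement, an AP-1 motif. The windows are chr9:7344147-7344396 and chr9:7347124-7347373 for Mmp12, chr9:7272264-7272513 for Mmp13 and chr7:24462233-24462482 for Plaur.
Mmp12, first start: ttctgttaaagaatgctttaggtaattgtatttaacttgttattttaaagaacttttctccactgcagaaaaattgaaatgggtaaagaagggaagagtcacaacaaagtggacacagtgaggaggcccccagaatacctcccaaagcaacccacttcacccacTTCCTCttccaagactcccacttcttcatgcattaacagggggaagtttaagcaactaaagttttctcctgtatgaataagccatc
Mmp12, second start: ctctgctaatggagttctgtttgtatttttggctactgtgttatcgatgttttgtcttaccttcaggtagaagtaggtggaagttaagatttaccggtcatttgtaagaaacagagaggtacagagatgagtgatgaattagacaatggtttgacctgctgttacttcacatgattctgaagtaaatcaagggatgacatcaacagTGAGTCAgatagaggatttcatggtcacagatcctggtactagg
Mmp13: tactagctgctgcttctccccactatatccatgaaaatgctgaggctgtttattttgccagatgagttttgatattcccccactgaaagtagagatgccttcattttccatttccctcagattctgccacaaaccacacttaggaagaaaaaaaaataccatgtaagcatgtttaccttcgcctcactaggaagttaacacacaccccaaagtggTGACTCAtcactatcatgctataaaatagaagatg
Plaur: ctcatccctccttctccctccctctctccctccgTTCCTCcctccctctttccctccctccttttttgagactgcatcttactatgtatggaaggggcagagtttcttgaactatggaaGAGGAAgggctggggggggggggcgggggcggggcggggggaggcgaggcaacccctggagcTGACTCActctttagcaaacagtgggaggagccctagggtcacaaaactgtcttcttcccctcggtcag
In these windows GAGGAA begins 86 bases before the first Mmp12 start, on the minus strand, and that of Plaur holds it 216 and 131 bases before the start, once on each strand. TGACTCA begins 44 bases before the second Mmp12 start, on the minus strand, 35 bases before that of Mmp13 and 69 bases before that of Plaur. Searched on both strands in all 32851 windows of the same length in the RefSeq table, GAGGAA is present in 23.3% and TGACTCA in 4.46%. The table holds 9 windows for 8 of the 10 genes, and each motif is in 3 of the 9. The window with GAGGAA that is not shown is that of Mmp8, a gene too low to test. There the motif begins 219 bases before the start, on the minus strand. The shorter ETS core GGAA, which GAGGAA contains, is in 93.4% of all windows and in all 9. A match of letters is a description and does not show a bound site.

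Mmp9, the gene of gelatinase B, which cuts denatured collagen and basement membrane collagen, was lower in the knockdown or overexpression library than in its control partner in all 6 pairs. It was at 11.5, 6.69 and 7.81 FPKM in knockdown, against 15.1, 8.31 and 9.53 FPKM in the scrambled controls. The groups overlap, and within pairs the knockdown level was 0.764, 0.805 and 0.820 of the scrambled level. The log2 fold change of FPKM + 1 was -0.30 with a standard error of 0.239 (limma, BH adjusted p = 0.387), or 0.045 with the block, where it passed (limma, BH adjusted p = 0.00817). Without the block it was -0.07 without scrambled control 1, -0.15 without knockdown library 2, -0.50 without knockdown library 1 and -0.46 without scrambled control 2. Mmp9 lies on chromosome 2 at bases 164940780 to 164955850, on the plus strand (mm10). The blocked call was lost without the libraries numbered 2 (adjusted p = 0.0598). In overexpression Mmp9 was at 5.74, 6.34 and 8.99 FPKM, against 8.93, 12.5 and 17.05 FPKM in the empty controls. Here the ranges touch, since the highest overexpression library is just above the lowest empty control, and the level within pairs was 0.643, 0.509 and 0.528 of the empty control. Mmp9 therefore did not follow Mmp12: both were lower in knockdown pairs, and with Spi1 raised Mmp12 was higher and Mmp9 lower.

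Mmp8, the gene of neutrophil collagenase, and Mmp14, the gene of the membrane-type enzyme that activates the precursor of gelatinase A, were too low to test. Mmp8 was at 0.583, 0.214 and 0.308 FPKM in knockdown and 0.538, 0.332 and 0.318 FPKM in the scrambled controls, with 14 to 38 and 19 to 34 reads. The groups overlap and the pairs disagree in direction. In overexpression Mmp8 was at 0.150, 0.236 and 0.322 FPKM, from 11, 16 and 23 reads, against 0.110, 0.153 and 0.161 FPKM from 6, 9 and 11 reads in the empty controls. Each overexpression library lay above its partner, on counts of at most 23 reads. Mmp14 had 4 to 12 reads in knockdown, 2 to 5 in the scrambled controls, 3 to 5 in overexpression and 2 to 9 in the empty controls, at most 0.140 FPKM in a library. With no filter on low values, neither gene passed in knockdown (limma, BH adjusted p = 0.904 for Mmp8 and 0.300 for Mmp14). Of 9 neutrophil markers in the tables, S100a8 alone had a group mean of 1 FPKM or more, S100a9 was listed at 0 in all libraries, and Mpo and Elane stayed at or below 0.268 and 0.197 FPKM. The summed neutrophil markers were 2.19 to 2.997 FPKM in knockdown and 3.03 to 5.39 FPKM in the scrambled controls, mostly S100a8, and their part in any result was not tested.

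Of the inhibitors, Timp2, whose product blocks metalloproteinases and also takes part in activating gelatinase A, was the expressed one, and lies on chromosome 11 at bases 118301069 to 118355740, on the minus strand (mm10). It was at 28.4, 21.5 and 25.1 FPKM in knockdown and 29.1, 20.6 and 26.8 FPKM in the scrambled controls, overlapping groups with pair ratios of 0.975, 1.04 and 0.938. Its log2 fold change of FPKM + 1 was -0.02 with a standard error of 0.144 (limma, BH adjusted p = 0.915), and its sign changed when single libraries were left out. In overexpression Timp2 was at 16.3, 18.1 and 18.5 FPKM, against 16.4, 21.3 and 22.3 FPKM in the empty controls, or 0.994, 0.849 and 0.827 within pairs. Timp1, the gene of a secreted inhibitor, had 7, 10 and 10 reads in knockdown and 6, 6 and 5 in the scrambled controls, which is 0.296 to 0.421 and 0.230 to 0.274 FPKM. It had 4, 8 and 11 reads in overexpression and 2, 3 and 8 in the empty controls. The knockdown libraries lay above the scrambled controls, yet Timp1 did not pass with no filter on low values (limma, BH adjusted p = 0.159), and 30.3% of the tested genes had knockdown libraries that all lay above the controls. Timp3, whose product binds to the matrix, was at 0 reads in all 12 libraries, which allows up to 3 reads, or 0.0908 to 0.134 reads per megaread, per library, and covers counting error only.

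**Figure D4:**
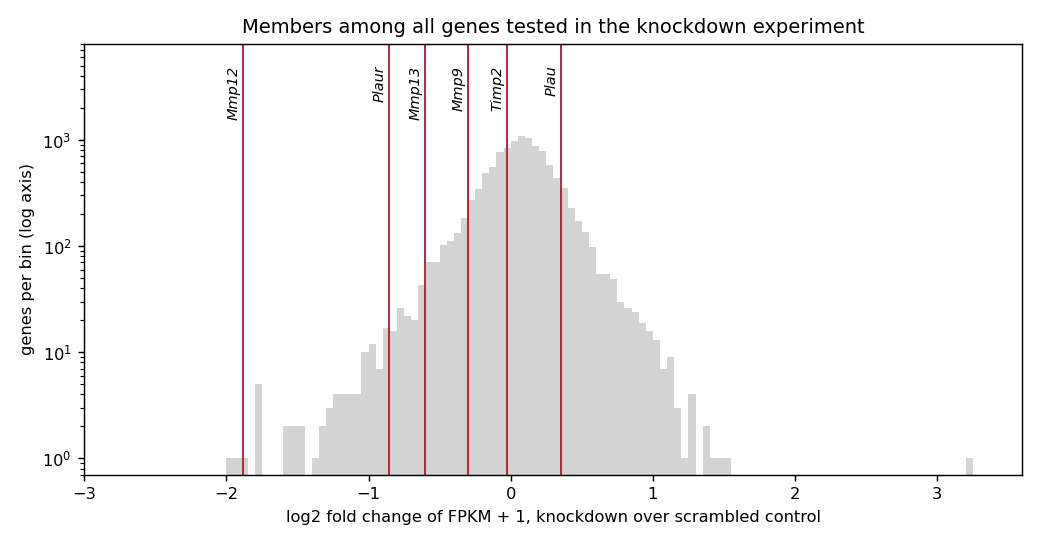
Number of genes, on a logarithmic axis, by log2 fold change of FPKM + 1 in knockdown over scrambled control, for the 11214 genes tested. Red lines mark the 6 tested metalloproteinase, inhibitor and urokinase genes; Mmp12 at -1.88 lies in the sparse lower tail, Plaur at -0.85 and Mmp13 at -0.60 on the lower shoulder, and Timp2 near the centre.

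The urokinase pair was the most abundant part of the system. Plaur, the gene of the urokinase receptor, fell in knockdown, to 73.2, 79.2 and 63.3 FPKM, against 134, 141 and 116 FPKM in the scrambled controls. All 3 knockdown libraries lay below all 3 controls, as did 15.1% of all genes tested, and the pair ratios of 0.544, 0.561 and 0.544 were nearly equal. The log2 fold change of FPKM + 1 was -0.85 with a standard error of 0.107 (limma, BH adjusted p = 0.00360), and 81 of the 11214 genes had a lower one. Leaving out any single library kept the call (adjusted p up to 0.0160), and a fit on all 12 libraries lost it (adjusted p = 0.0598). In overexpression Plaur was at 172, 84.7 and 115 FPKM, against 151, 72.1 and 104 FPKM in the empty controls, groups that overlap widely, with same-numbered libraries close to each other. Within pairs it was 1.142, 1.17 and 1.11 times the empty control.

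Plau, the gene of urokinase itself, lies on chromosome 14 at bases 20836660 to 20843385 and Plaur on chromosome 7 at bases 24462484 to 24475968, both on the plus strand (mm10). The level of Plau did not follow that of Plaur. It was at 535, 554 and 438 FPKM in knockdown and at 484, 368 and 346 FPKM in the scrambled controls, and each knockdown library lay above its partner, at 1.10, 1.505 and 1.27 times. The groups overlap, since scrambled control 1 lay above knockdown library 3. The log2 fold change of FPKM + 1 was 0.36 with a standard error of 0.144 (limma, BH adjusted p = 0.108), or 0.091 with the block (limma, BH adjusted p = 0.0311). The blocked call was lost with median-of-ratios scaling (adjusted p = 0.0677) and without the libraries numbered 2 (0.110) or 3 (0.0891). In overexpression Plau was at 501, 512 and 537 FPKM, against 505, 468 and 564 FPKM in the empty controls, with pairs on both sides of 1. The mean was 509 ± 62.0 FPKM in knockdown and 400 ± 74.2 FPKM in the scrambled controls (SD, n = 3 each), and 516 ± 18.3 FPKM in overexpression and 512 ± 48.4 FPKM in the empty controls. The scrambled controls were thus the low group of the 4, and levels set across the separately made experiments were not tested. Per length, the Plau level was 7.32, 6.99 and 6.93 times the Plaur level in knockdown, against 3.601, 2.60 and 2.98 times in the scrambled controls. It was 2.91, 6.04 and 4.65 times in overexpression, against 3.35, 6.49 and 5.44 times in the empty controls.

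Other genes of matrix proteolysis were taken from 5 lists with 110 genes, chosen from textbook knowledge with earlier results of these data known; 109 were in the tables and 37 were tested. In knockdown 14 of the 37 passed in limma with BH adjustment, 6 higher and 8 lower, or 37.8% against 26.3% of all genes. With the block 19 passed, 9 higher and 10 lower, or 51.4% against 45.3%. In limma-voom with the block 20 passed, or 54.1% against 51.1%. After median-of-ratios scaling 13 passed, or 35.1% against 24.1%, and with the block as well 19, or 51.4% against 41.9%. Whether these shares differ was not tested. The knockdown counts per list below come from limma without the block. Of the other metalloproteinases 3 of 18 were tested and 1 passed, Mmp2, the gene of gelatinase A, which fell to 0.913 ± 0.227 FPKM in knockdown, against 1.70 ± 0.202 FPKM in the scrambled controls (SD, n = 3 each). Its log2 fold change of FPKM + 1 was -0.50 with a standard error of 0.102 (limma, BH adjusted p = 0.0135). It no longer passed without both libraries numbered 2 (adjusted p = 0.0596) and in the fit on all 12 libraries (0.0976). Mmp2 was at 1.45 ± 0.435 FPKM in overexpression and 1.44 ± 0.683 FPKM in the empty controls.

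Among 9 tested genes of plasminogen activation 1 fell and 1 rose. Anxa2, whose product holds plasminogen and its tissue activator at the cell surface, fell by 0.20 on the log2 scale, and Thbd, the gene of thrombomodulin, rose by 0.22. Both calls were lost on leaving out any of the 6 libraries, with adjusted p up to 0.115 for Anxa2 and 0.107 for Thbd. That of Thbd was also lost with median-of-ratios scaling (adjusted p = 0.0770). Neither of the 2 tested genes of other inhibitors and activators, Furin and Bsg, passed without the block (limma, BH adjusted p = 0.224 and 0.670), and with it Furin, the gene of the convertase that activates membrane-type metalloproteinases, was at 40.3 ± 6.47 FPKM in knockdown and 48.4 ± 7.43 FPKM in the scrambled controls (SD, n = 3 each; limma, BH adjusted p = 0.0394). That call was lost without the libraries numbered 1 (adjusted p = 0.114) or 2 (0.184), and without the block the log2 fold change of Furin was -0.26, or -0.12 without knockdown library 2 and -0.14 without scrambled control 1.

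Of 11 tested ADAM and ADAMTS genes and their regulators, 2 rose and 3 fell. Adamts4, an aggrecanase gene, rose to 2.998 ± 0.285 FPKM in knockdown, against 2.05 ± 0.0562 FPKM in the scrambled controls, and Adam15 fell to 86.5 ± 1.67 FPKM in knockdown, against 107 ± 2.20 FPKM (SD, n = 3 each). Both calls held on leaving out any single library (limma, BH adjusted p up to 0.0328 and 0.0409). Without both libraries numbered 2 both were lost (adjusted p = 0.0666 for Adamts4 and 0.0888 for Adam15), and that of Adamts4 also in the fit on all 12 libraries (0.111). Rhbdf1 and Rhbdf2 encode the iRhom proteins that bring ADAM17 to the cell surface. Rhbdf1 rose by 0.42 and Rhbdf2 fell by 0.27 on the log2 scale, with calls lost on leaving out 3 and 5 of the 6 libraries (adjusted p up to 0.0687 and 0.110). Of 12 tested genes of matrix proteins and their receptors, 3 rose and 3 fell. Sdc1, the gene of syndecan-1, and Dag1, the gene of dystroglycan, rose by 0.58 and 0.44, and Itga5, a subunit gene of the fibronectin receptor, and Cd44, the hyaluronan receptor gene, fell by 0.37 and 0.33. The call of Cd44 was lost without knockdown library 3 (adjusted p = 0.0534), and those of the other 3 held on leaving out any single library. Without both libraries numbered 2 all 4 were lost (adjusted p from 0.0517 for Dag1 to 0.0834 for Sdc1), and in the fit on all 12 libraries those of Cd44 (0.436) and Sdc1 (0.0892) were lost.

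With Spi1 raised, 0 of the 37 passed in limma with or without the block. An unadjusted p below 0.05 was found for 13 with the block, against 1577 of all 11217 genes tested. Without the block it was found for 0, against 122 of all genes tested. With limma-voom and the block, 8 passed, 3 higher and 5 lower, against 4.41% of all genes. Of the most abundant genes of the lists, Spp1, the osteopontin gene, was at 12186 ± 4011 FPKM in overexpression and 10510 ± 2855 FPKM in the empty controls (SD, n = 3 each). Its log2 fold change was 0.20, with a standard error of 0.281 without the block and 0.048 with it (limma, BH adjusted p = 0.220 with the block). The change passed in 1 of the alternative fits and turned its sign in 1. Adam8, a protease gene of leukocyte migration, was at 469 ± 60.2 FPKM in overexpression and 470.4 ± 85.7 FPKM in the empty controls (SD, n = 3 each). In knockdown Adam8 was among the ADAM genes that fell, to 423 ± 35.7 FPKM, against 543 ± 66.6 FPKM in the scrambled controls. Its log2 fold change there was -0.35 (limma, BH adjusted p = 0.0432). That call was lost on leaving out 4 of the 6 libraries (adjusted p up to 0.125). Mmp19 and Mmp24, the other tested metalloproteinase genes, were at 6.84 ± 0.854 and 2.55 ± 0.361 FPKM in overexpression, against 7.39 ± 1.30 and 2.67 ± 0.514 FPKM in the empty controls.

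The genes whose pattern was most like that of Mmp12 were ranked by Pearson's r of log2(FPKM + 1) over the 12 libraries, after the mean of each experiment was subtracted, among 10490 genes. Mmp13 came first at 0.938, followed by Bcar3 at 0.936, Rybp at 0.915, Plin2, a lipid droplet protein gene, at 0.908, and Cst3, the cystatin C gene, at 0.884. For Mmp13 the order was Rybp at 0.949, Mmp12 at 0.938, Pde2a at 0.924, Bcar3 at 0.901 and Hist2h2aa1 at 0.865. Bcar3 averaged 12.97 FPKM in knockdown and 17.9 FPKM in the scrambled controls, and 17.1 FPKM in overexpression and 12.7 FPKM in the empty controls. The r with Mmp12 was 0.702 for Spi1, 0.651 for Plaur, 0.032 for Plau, -0.015 for Timp2 and -0.003 for Mmp9. Both Mmp12 and Mmp13 were chosen for their levels in the overexpression experiment, which gives 6 of the 12 libraries, so their likeness is partly fixed by that choice. These values are descriptions: the 12 points share pairs, experiments and depth, and genes are not independent of each other.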

How the data were processed

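The authors deposited 2 tables of FPKM with 1 column per library; the build mm10 and the tools DESeq2 1.14, featureCounts, STAR 2.5.2a, bcl2fastq and CASAVA 1.8.2 come from the submitters' processing notes, without roles. Per the labels' protocols, polyA RNA went through the TruSeq RNA v2 kit, whose libraries carry no strand mark, and gave single reads of 100 bases. The FPKM unit was read from the values: all 17838 genes above 0 are whole multiples of a step (tolerance 0.0001 read), which also gave the reads. FPKM is scaled to each library's total. The annotation is not given in the sources used here. Each experiment was fitted alone, on log2(FPKM + 1) for genes averaging 1 FPKM or more, in limma 3.58.1 (R 4.3.3), with BH adjustment and a threshold of 0.05, and checked on simulated data; 4 entries with repeated symbols were left out. Alternatives were the pseudocount, filter, scaling, block, shared fit, trend, left-out libraries and, added after seeing the data, limma-voom, blocked fits without a pair, and the block with rescaling. The numbers were treated as pairs because deviations from group means correlated across genes at 0.397, 0.540 and 0.345 for knockdown and its control and at 0.791, 0.845 and 0.513 for overexpression and its control. From each list, up to 4 called genes with the smallest p were named (with the block where none passed without it), otherwise the 2 most abundant, and for Mmp12 and Mmp13 the 5 genes of highest r. Members and lists were chosen with earlier results of these data known.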

Additional observations from a re-analysis of the deposited data

How the results depend on the processing

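In knockdown 2945 genes passed in limma. The count was 5081 with the replicate block, 5725 in limma-voom with the block, 4701 with the block and median-of-ratios scaling, 1268 with the block and without the libraries numbered 2, 1624 in the fit on all 12 libraries and 449 without both libraries numbered 2; leaving out single libraries gave 1458 to 2206. Of the 6 tested members 1 passed, against 4 with the block, also after rescaling, 5 in limma-voom with the block, 0 in the fit on all 12 libraries, and 5, 2 and 3 with the block and without the libraries numbered 1, 2 or 3. Over all genes, 4351, 1268 and 3302 passed in these blocked fits without the libraries numbered 1, 2 or 3. Leaving out single libraries gave 1 to 2 members, the additional gene being Plau without scrambled control 1 (adjusted p = 0.0300). With the block and rescaling the 4 were Mmp12, Mmp13 (adjusted p = 0.0475), Mmp9 and Plaur. Of the 37 list genes 14 passed, against 19 with the block, also after rescaling, and 20 in limma-voom with the block. The count was 6 in the fit on all 12 libraries, 1 without both libraries numbered 2, and 6 to 10 without single libraries. With the block it was 17, 4 and 12 without the libraries numbered 1, 2 or 3. In overexpression 0 genes passed in limma, 13 with the block, 12 after rescaling with the block, 495 in limma-voom with the block, and 0, 5 and 46 with the block and without the libraries numbered 1, 2 or 3; of the list genes 8 passed in limma-voom with the block. Leaving out single libraries gave 0 there. Signs turned for these small changes that did not pass in limma without the block. Plau and Plaur in overexpression, which were not tested, ranged from -0.05 to 0.09 and -0.07 to 0.45 without single libraries. Timp2 in knockdown ranged from -0.16 to 0.08 without single libraries, and was 0.01 with the block and without the libraries numbered 3. In overexpression the ranges were -0.02 to 0.08 for Adam15, -0.10 to 0.14 for Adam8, which was -0.05 with the block and without the libraries numbered 1, -0.25 to 0.01 for Anxa2, -0.28 to 0.05 for Eno1, -0.33 to 0.07 for Furin, -0.22 to 0.00 for Mmp19, -0.12 to 0.07 for Mmp24 and -0.05 to 0.41 for Spp1. The cause of these differences was not tested. Mmp8, Mmp14 and Timp1 are limited by depth, at 2 to 38 reads per library.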

Other observations

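The ratio of Mmp12 to Mmp13 levels, per length, was 5.13, 1.68 and 1.25 in knockdown libraries 1, 2 and 3, and 9.25, 5.19 and 4.17 in their scrambled partners. It was lower in knockdown in all 3 pairs. In overexpression it was 9.44, 8.40 and 6.75, against 7.38, 12.8 and 4.26 in the empty controls, higher in 2 of 3 pairs. The ratio of Timp2 to Mmp9 levels was 2.47, 3.21 and 3.21 in knockdown, against 1.93, 2.48 and 2.81 in the scrambled controls. With Spi1 raised it was 2.84, 2.85 and 2.05 in overexpression and 1.84, 1.71 and 1.31 in the empty controls. It was higher than in the partner library in all 6 pairs, and this was not tested.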
